A study of Saccharomyces cerevisiae with 48 samples.

Results

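The 10 genes described here act on iron inside the cell of budding yeast, in iron sparing, haem breakdown, mitochondrial iron supply, iron-sulfur cluster assembly and the traffic of iron into and out of the vacuole. They were chosen by name for these roles, with no threshold on a measured value but with earlier results of these data known, and all 10 were among the 6713 gene identifiers of the table. TIS11 (YLR136C, chrXII:415801-416658), HMX1 (YLR205C, chrXII:552724-553677), SMF3 (YLR034C, chrXII:210512-211933) and CCC1 (YLR220W, chrXII:576825-577793) lie on chromosome XII of the R64 build. The other genes are CTH1 (YDR151C, chrIV:764178-765155), MRS4 (YKR052C, chrXI:532550-533464), ISU1 (YPL135W, chrXVI:297553-298050), ISU2 (YOR226C, chrXV:761614-762084), FET5 (YFL041W, chrVI:49139-51007) and FTH1 (YBR207W, chrII:635146-636543). Each is annotated with 1 coding exon, none overlaps another annotated gene, and the nearest neighbour of each starts or ends 118 to 520 bases away.

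RNA was sequenced from 3 natural isolates of Saccharomyces cerevisiae, each represented by a single strain: WA (NCYC3290), a West African strain, PAP (Y7568), a strain of mixed ancestry from papaya, and IL01, a strain of mixed ancestry from Illinois. Every culture grew in YPD, a rich medium, either alone or with 0.8% 1-butanol, with 1% isobutanol or with ethanol at 4% under aerobic and 3% under anaerobic conditions. Cells had grown for several generations in the alcohol when they were collected in log phase. Aerobic cultures were shaken and anaerobic cultures were grown in a chamber in flasks with stirring, so that oxygen, agitation and collection cannot be told apart. With 2 replicates of each of the 24 combinations of strain, medium and oxygen, 48 libraries were available. The study asked how alcohols affect strains that differ in tolerance, and how oxygen alters this.

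Yeast cells take up iron under the control of the activators Aft1 and Aft2, which are active when the supply of iron-sulfur clusters is low. Under iron scarcity the same regulators raise genes that release iron from the vacuole, recover it from haem and lower its use by destabilising mRNAs of iron-consuming proteins. Iron-sulfur clusters are built in mitochondria on a scaffold protein, and surplus iron is stored in the vacuole, whose importer is under the control of Yap5, a regulator that responds to high iron.

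The core of the Aft1 and Aft2 site, TGCACCC, was searched on both strands in the 250 bases before each start codon, because these regulators are the known activators of most of the genes. It was found before 2 of the 10 genes, TIS11 with 2 matches and FET5 with 1, and before 1.15% of 6002 promoters of the same length in the R64 annotation of RefSeq. When the window was widened to 500 bases, after the result in 250 bases was known, 5 of the 10 genes and 2.33% of all promoters held it, with HMX1, ISU1 and SMF3 as the additional genes. The letters TTACTAA of Yap-type sites stood before CTH1 alone in 250 bases, beside 6.66% of all promoters. In 500 bases they stood before CTH1, MRS4, ISU2 and CCC1, 4 of 10 beside 11.8%. The letters ATTGTTC, of the type bound by the hypoxic repressor Rox1, were found before none of the 10 genes in either window, beside 6.18% and 11.83% of promoters. No gene held matches to more than 1 of these motifs, a match is a description of the letters, and binding was not measured. The 6 matches to the Aft1 and Aft2 core are shown for the 5 genes that held them in 500 bases. Genes without a match, MRS4, ISU2 and FTH1, were also called higher in both aerobic butanols, as described below. They are written 5′ to 3′ on the strand of the gene, with the match in capitals and its reverse complement where the match lies on the other strand. The distances before the start codon, in the order printed, were 249, 173, 128, 252, 451 and 430 bases.
TIS11, chrXII:416890-416918 (minus strand): ccgccgcaaaaTGCACCCacattaaagaa
TIS11, chrXII:416814-416842 (minus strand): cacatgcagttGGGTGCAttgtgccagca
FET5, chrVI:49000-49028 (plus strand): tgtattcagtcTGCACCCtgtttcgccat
ISU1, chrXVI:297290-297318 (plus strand): ataaggtgcgtTGCACCCcaattagccat
HMX1, chrXII:554111-554139 (minus strand): ctaacaggtgcGGGTGCAagtttactaga
SMF3, chrXII:212346-212374 (minus strand): ccctgatgatcGGGTGCActatcaccact

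The deposited values are log2 RPKM, in which reads of a gene are scaled to its length and to the size of the library. Reads behind this scaling ran from 7480286 to 13938540 per library (median 9762380.5), so that 3 reads in a gene of 1 kb stood at an RPKM of 0.215 to 0.401. Between the replicates of a group the correlation of log2 RPKM was 0.933 to 0.989 across 5704 genes, which are not independent replicates. Of 8 genes known to depend on oxygen, ANB1, TIR1, DAN1, HEM13, CYC1, HYP2, COX5A and CYT1, each separated the 24 aerobic from the 24 anaerobic libraries without overlap. Strain labels were checked on genes whose RPKM differed more than 3-fold between all other libraries of a strain and all libraries of the remaining strains. In 23 groups 85.3% to 100% of such values lay on the side of the labelled strain, and in 19 of these all did. Groups of PAP and IL01 were checked on 11 to 17 genes. Each WA group among the 23 was checked on only 3, so those labels were checked less closely. In the 2 libraries labelled WA in anaerobic ethanol, checked on 14 genes, 7 of 28 values, 25.0%, lay on the side of WA. These libraries go against their strain label, and tests of anaerobic ethanol are given with and without strain WA, and its levels with and without these libraries.

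**Figure D1:**
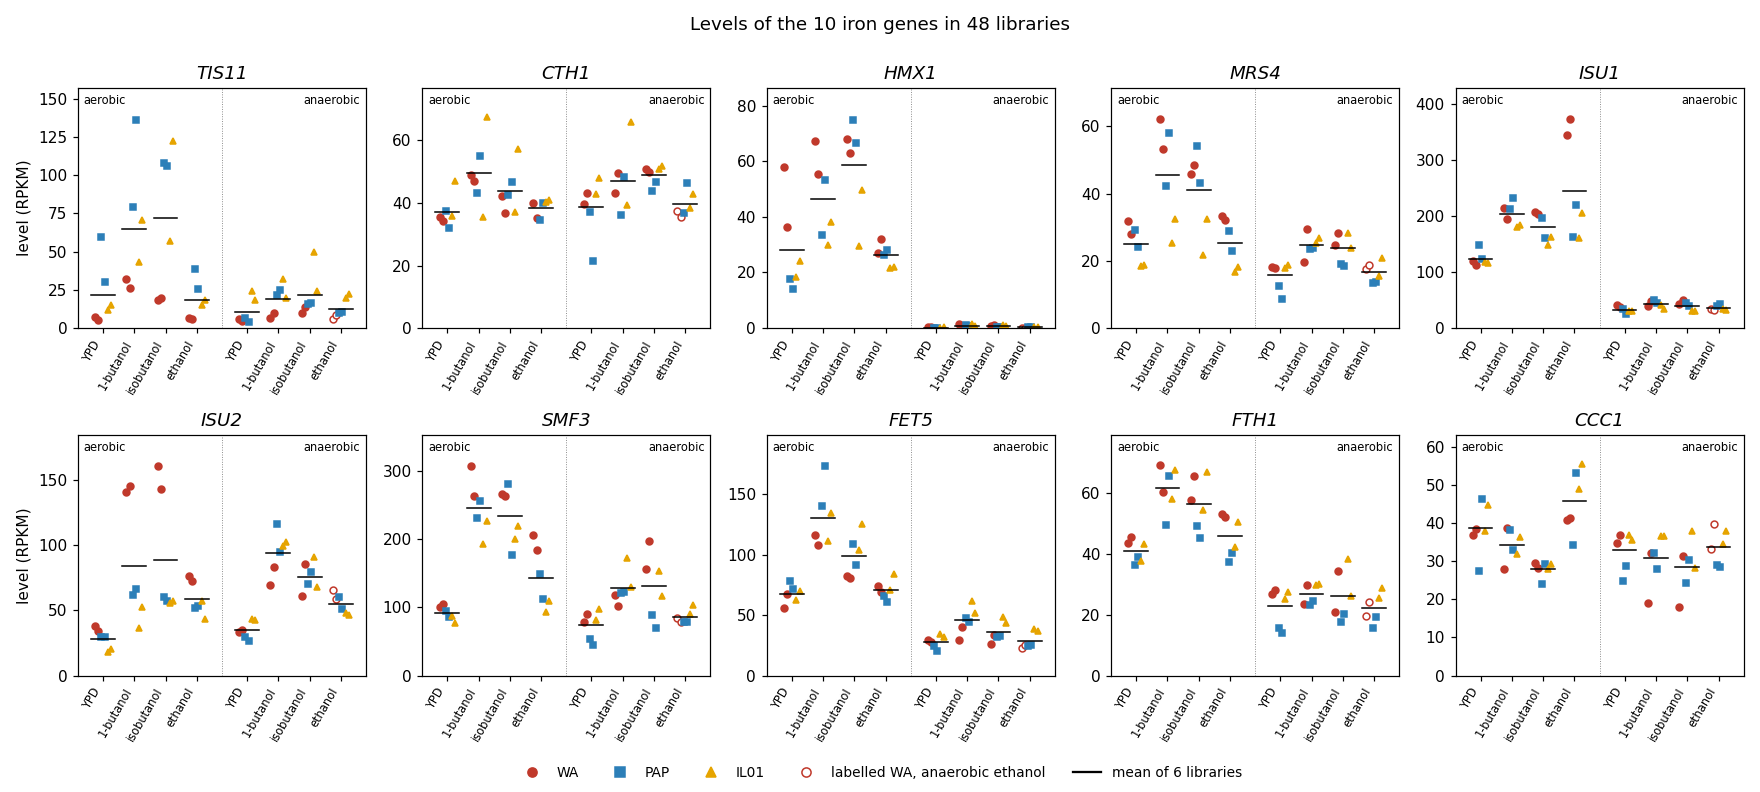
RPKM (vertical axis, linear from 0, scaled for each gene) of the 10 genes in each of the 48 libraries, by medium along the horizontal axis, with aerobic libraries on the left and anaerobic libraries on the right of each panel. Points are single libraries shaped by strain, open circles are the 2 libraries labelled WA in anaerobic ethanol, and bars are means of 6 libraries. HMX1 lies between 13.9 and 74.8 RPKM in the aerobic libraries and at or below 1.49 RPKM in the anaerobic libraries.

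Under aerobic conditions the butanols raised most of these genes and ethanol few of them. With 1-butanol 7 of the 10 genes were higher than in YPD at an FDR of 1% (TIS11, MRS4, ISU1, ISU2, SMF3, FET5 and FTH1), beside 8.22% of all genes tested. With isobutanol the same 7 and HMX1 were higher, 8 of 10, beside 7.99% of all genes. That count was 4 without replicate 2 of WA or replicate 1 of PAP in isobutanol, and 5 without replicate 1 of WA or replicate 2 of IL01 in isobutanol or any YPD library of PAP or IL01. With ethanol 3 of 10 were higher (ISU1, ISU2 and SMF3), beside 5.53%. None of the 10 was called lower, beside 2.40%, 2.43% and 1.37% of all genes in 1-butanol, isobutanol and ethanol. The median change of the 10 genes was 0.83 on the log2 scale in 1-butanol, 0.61 in isobutanol and 0.11 in ethanol, while the median of all genes was 0.22, 0.18 and 0.22. The YPD libraries were shared by the comparisons, and doses differed between the alcohols. Tests were limma fits across all genes with Benjamini-Hochberg adjustment, and errors are standard errors unless stated. In bulk RNA, fewer cells that express a gene and less of its RNA per cell cannot be told apart.

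Without oxygen HMX1 lay under the filter of a mean RPKM of 1 and was not tested, which leaves 9 genes. With 1-butanol 5 of 9 were higher (TIS11, MRS4, ISU2, SMF3 and FET5), beside 20.2% of all genes. With isobutanol 4 of 9 were higher (TIS11, MRS4, ISU2 and SMF3), beside 11.3%, a count of 2 without replicate 2 of WA or replicate 1 of PAP in isobutanol. None was called lower in the butanols, beside 7.11% and 2.58% of all genes. With ethanol ISU2 alone was higher, 1 of 9 beside 7.95%. Without strain WA none of the 9 passed in ethanol, with 208 genes called in the whole table. The median change of the 9 genes was 0.69, 0.38 and 0.12, and that of all genes was 0.17, 0.11 and 0.04. Without strain WA the ethanol medians were 0.19 and 0.03.

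**Figure D2:**
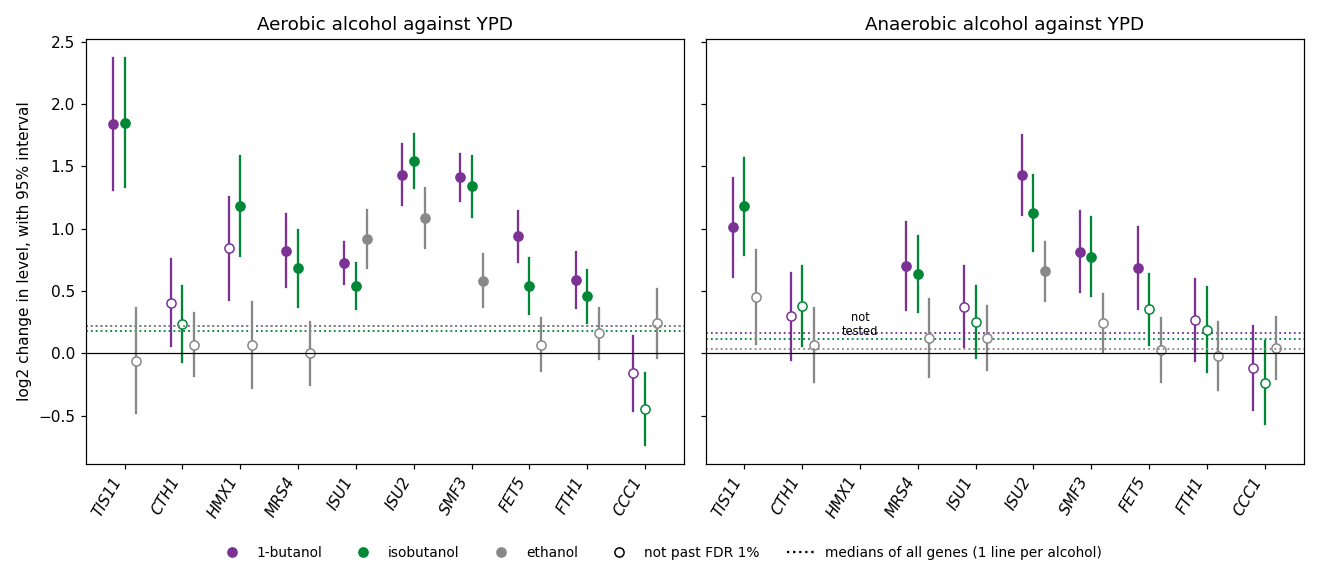
Log2 change in level in each alcohol against YPD (vertical axis), with its 95% interval, for the 10 genes along the horizontal axis, aerobic on the left and anaerobic on the right. Filled points passed an FDR of 1% and open points did not, dotted lines are the medians of all genes, and the anaerobic ethanol values include the 2 libraries labelled WA. TIS11, ISU2 and SMF3 changed by 1.34 to 1.85 in the aerobic butanols, CCC1 lay below 0 in both, and HMX1 was not tested without oxygen.

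TIS11 encodes an RNA-binding protein that promotes decay of mRNAs for iron-using proteins when iron is scarce. With oxygen it ran from 5.48 to 59.5 RPKM in the 6 YPD libraries (median 13.7), from 26.0 to 136 in 1-butanol (median 57.1), from 18.3 to 123 in isobutanol (median 81.7) and from 5.90 to 38.8 in ethanol (median 16.5). These ranges overlapped across strains, but within each strain both libraries of either butanol lay above both YPD libraries, whereas those of ethanol overlapped with YPD. The mean RPKM was 2.99 times that of YPD in 1-butanol and 3.33 times in isobutanol. TIS11 rose by 1.84 ± 0.23 on the log2 scale in 1-butanol (adjusted p = 0.00076) and by 1.85 ± 0.23 in isobutanol (adjusted p = 0.00061), in 6 of 6 strain-by-replicate pairs each. The ethanol value was -0.06 ± 0.19 (adjusted p = 0.83). No single library decided the butanol calls.

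Without oxygen TIS11 ran from 4.18 to 24.2 RPKM in YPD (median 6.16), from 6.33 to 32.2 in 1-butanol (median 20.7), from 10.2 to 49.5 in isobutanol (median 16.1) and from 5.66 to 22.0 in ethanol (median 10.2), where the 4 libraries of PAP and IL01 ran from 9.97 to 22.0. Both isobutanol libraries lay above both YPD libraries in each of the 3 strains, and those of 1-butanol did so in WA and PAP. TIS11 rose by 1.01 ± 0.20 in 1-butanol (adjusted p = 6.9e-05) and by 1.18 ± 0.18 in isobutanol (adjusted p = 0.00032). The ethanol value was 0.45 ± 0.18 (adjusted p = 0.087), and 0.47 without strain WA (adjusted p = 0.30). In 1-butanol the change was 2.17 in PAP, 0.61 in WA and 0.26 in IL01. This difference between strains missed the threshold (adjusted p = 0.021), and passed it with a replicate block per strain (0.0056) and without replicate 1 of IL01 in anaerobic 1-butanol (0.0011).

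The level of TIS11 in YPD differed between strains in both oxygen conditions. With oxygen PAP stood at 30.0 and 59.5 RPKM, IL01 at 12.2 and 15.2 and WA at 5.48 and 7.35 (adjusted p of the joint test = 0.0025). Without oxygen IL01 was highest, at 18.4 and 24.2 RPKM, while PAP stood at 4.18 and 6.48 and WA at 4.61 and 5.84 (adjusted p = 0.0046). PAP and IL01 thus changed places between the oxygen conditions. In the fit of the 12 YPD libraries with the replicate block TIS11 was the only one of the 10 genes that differed between strains, 1 of 10 beside 3.77% of all genes with oxygen and 6.38% without. In the fit of all 48 libraries ISU2 also differed with oxygen (adjusted p = 0.0011), and HMX1, MRS4, SMF3 and FTH1 did without (adjusted p from 0.00069 to 0.0061), SMF3 also without the replicate block (0.0097). The aerobic call was lost without any aerobic library of PAP or anaerobic library of WA or PAP. The anaerobic call was lost without any of the 6 anaerobic libraries. Leaving out a library also changed the variance of each gene, which both oxygen conditions share in this fit, and that pooled over all genes. An anaerobic library alters these and the set of genes tested, but no aerobic level. The adjusted p of TIS11 then moved in both directions, far down as well as up. Voom weights gave an adjusted p of 0.0101 for the anaerobic difference, which misses the threshold. Leaving out replicate 1 or replicate 2 of WA in aerobic YPD changes no anaerobic value, only these variances and the set of genes tested. The results for HMX1 and SMF3 in those fits are therefore not read as strain differences in anaerobic YPD. HMX1 held 0 to 3 reads in each library there, and replicate 1 of IL01, without reads, was fitted at an RPKM of 1. The result for HMX1 in the fit of all 48 libraries is likewise not read as a strain difference.

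CTH1 encodes a protein related to Tis11 that also binds mRNAs under iron scarcity. It varied far less than TIS11. With oxygen it ran from 32.0 to 47.0 RPKM in YPD (median 35.5), from 35.4 to 67.6 in 1-butanol (median 47.9), from 36.8 to 57.1 in isobutanol (median 42.4) and from 34.7 to 40.9 in ethanol (median 40.1). The ranges overlapped in every medium, and CTH1 passed the threshold in no comparison with all libraries included, with a largest change of 0.40 ± 0.15 in aerobic 1-butanol (adjusted p = 0.093). Without oxygen it stood at 21.6 to 48.1 RPKM in YPD, where replicate 2 of PAP was lowest, and at 35.6 to 65.9 RPKM over the alcohols, with 36.7 to 46.3 in the 4 ethanol libraries of PAP and IL01. The anaerobic changes were 0.30 ± 0.17 in 1-butanol (adjusted p = 0.17) and 0.38 ± 0.15 in isobutanol (adjusted p = 0.069). Without replicate 1 of PAP in anaerobic YPD these changes were 0.48 and 0.52. PAP in YPD then rested on replicate 2 alone, the library with the lowest share of reads in genes and a lower median. The ratio of CTH1 to TIS11 per library ran from 0.393 to 9.37. The coding sequences of TIS11 and CTH1 are 63.3% identical over 826 aligned bases, and their longest shared run is 12 bases.

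HMX1 encodes haem oxygenase, which releases iron from haem in a reaction that needs oxygen. Its aerobic level ran from 13.9 to 57.9 RPKM in YPD (median 21.2), from 29.9 to 67.2 in 1-butanol (median 45.7), from 29.7 to 74.8 in isobutanol (median 64.9) and from 21.6 to 31.9 in ethanol (median 26.7). WA was highest in YPD, at 36.3 and 57.9 RPKM, and its range overlapped with 1-butanol, while its isobutanol libraries and the libraries of PAP and IL01 in both butanols lay above YPD of the same strain. HMX1 rose by 1.18 ± 0.18 in isobutanol (adjusted p = 0.0016), a call lost without replicate 1 of PAP in isobutanol (1.15, adjusted p = 0.0102). The change in 1-butanol, 0.84 ± 0.18, missed the threshold (adjusted p = 0.011), although it was positive in 6 of 6 pairs. It passed without the replicate block (adjusted p = 0.0071) and in the fit of all 48 libraries (0.0072), and without either YPD library of WA it was 0.98 or 0.70 (adjusted p = 0.00068 and 0.0076). The ethanol value was 0.07 ± 0.15 (adjusted p = 0.78), with -0.64 in WA and 0.79 in PAP, and this spread between strains was not past the threshold (adjusted p = 0.34). Without replicate 2 of WA in aerobic YPD it was (adjusted p = 0.0080).

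Without oxygen HMX1 was close to undetected. The 6 libraries of YPD held 11 reads together, with at most 3 in a library, those of 1-butanol 51, those of isobutanol 39 and those of ethanol 14, against 1484 to 3348 in the aerobic media. Replicate 1 of IL01 in YPD and replicate 2 of WA in 1-butanol were listed at 0, which the deposited log2 scale places at an RPKM of 1, above most of the other anaerobic values. A level of up to 3 reads in these libraries could not be told from 0. Scaled to library size, the ratio of summed reads to those of YPD was 4.53 in 1-butanol (exact 95% interval 2.33 to 9.65), 3.49 in isobutanol (1.75 to 7.55) and 1.25 in ethanol (0.527 to 3.04). Without strain WA the ethanol libraries held 12 reads against 6 in YPD, a ratio of 1.96 (0.681 to 6.36). These intervals cover counting error and not the spread between libraries. With genes of low level kept in the limma fit, the change in 1-butanol was 1.88 (adjusted p = 0.0032) and that in isobutanol 1.21 (adjusted p = 0.071). In the fit of all 48 libraries both passed (adjusted p = 1.7e-07 and 0.00017), and all of these fits carry the libraries listed at 0 at an RPKM of 1.

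**Figure D3:**
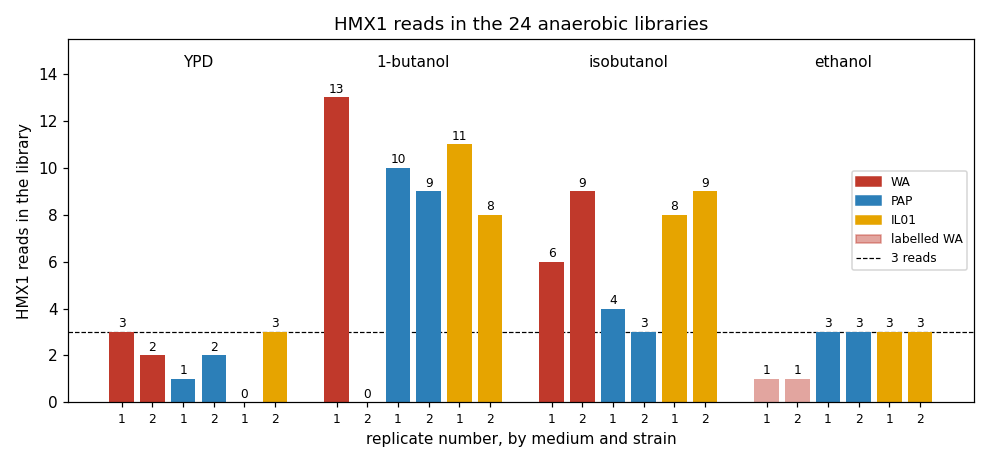
Reads of HMX1 (vertical axis, linear from 0) in each of the 24 anaerobic libraries, with replicate number along the horizontal axis, by medium and strain. Pale bars are the 2 libraries labelled WA in ethanol, and the dashed line marks 3 reads. No library of YPD or ethanol exceeds 3 reads, while 9 of 12 butanol libraries lie at 6 to 13 reads.

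MRS4 encodes a carrier of the mitochondrial inner membrane that supplies iron to the matrix. Under aerobic conditions MRS4 ran from 18.4 to 31.8 RPKM in YPD (median 26.1), from 25.2 to 62.3 in 1-butanol (median 47.8), from 21.8 to 54.1 in isobutanol (median 44.5) and from 16.5 to 33.3 in ethanol (median 25.9). IL01 was lowest in every aerobic medium, which makes the ranges overlap, and in each strain both butanol libraries lay above both YPD libraries. MRS4 rose by 0.82 ± 0.13 in 1-butanol (adjusted p = 0.0026) and by 0.68 ± 0.14 in isobutanol (adjusted p = 0.0074), and the ethanol value was 0.00 ± 0.11 (adjusted p = 0.99). The 1-butanol call was lost without any of 4 of 12 libraries (adjusted p up to 0.015) and the isobutanol call without any of 9 of 12 (up to 0.035). After quantile normalization the isobutanol value was 0.46 (adjusted p = 0.014). Without oxygen MRS4 ran from 8.70 to 18.6 RPKM in YPD, from 19.7 to 29.4 in 1-butanol, from 18.6 to 28.4 in isobutanol and from 13.5 to 20.8 in ethanol, also without the libraries labelled WA. The 1-butanol libraries all lay above the YPD libraries. It rose by 0.70 ± 0.17 in 1-butanol (adjusted p = 0.0014) and by 0.63 ± 0.14 in isobutanol (adjusted p = 0.0047), and the ethanol value was 0.12 ± 0.15 (0.18 without strain WA). The anaerobic 1-butanol call was lost without replicate 2 of WA in 1-butanol (0.59, adjusted p = 0.019), and that in isobutanol without any of 7 of 12 libraries (adjusted p up to 0.027).

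ISU1 encodes the main scaffold on which mitochondrial iron-sulfur clusters are assembled, and ISU2 its close relative with an overlapping role. With oxygen ISU1 ran from 112 to 149 RPKM in YPD (median 119), from 180 to 233 in 1-butanol (median 204), from 148 to 207 in isobutanol (median 180) and from 162 to 373 in ethanol (median 213). All libraries of 1-butanol and of ethanol lay above all of YPD, and in isobutanol the lowest library, of IL01, stood just below the highest YPD library, of PAP. ISU1 rose by 0.92 ± 0.10 in ethanol (adjusted p = 0.00038), by 0.73 ± 0.07 in 1-butanol (adjusted p = 0.00021) and by 0.54 ± 0.08 in isobutanol (adjusted p = 0.0017). The isobutanol call was lost without replicate 2 of WA in isobutanol (0.53, adjusted p = 0.012). In ethanol the 2 libraries of WA stood at 345 and 373 RPKM, above the 163 to 220 of PAP and the 162 to 206 of IL01. WA thus changed by 1.63, PAP by 0.48 and IL01 by 0.64, and this difference between strains missed the threshold (adjusted p = 0.19).

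ISU2 rose in all 3 alcohols with and without oxygen, more comparisons with YPD than any other of the 10 genes, although its anaerobic ethanol call was lost without strain WA. With oxygen it ran from 17.8 to 38.2 RPKM in YPD (median 29.7), from 36.8 to 146 in 1-butanol (median 63.9), from 55.3 to 160 in isobutanol (median 58.9) and from 43.2 to 75.9 in ethanol (median 55.2). All libraries of isobutanol and ethanol lay above all of YPD, and in 1-butanol a library of IL01 stood at 36.8, below the highest YPD library, of WA, while within each strain the groups did not overlap. ISU2 rose by 1.43 ± 0.11 in 1-butanol (adjusted p = 3.4e-05), by 1.54 ± 0.10 in isobutanol (adjusted p = 1.0e-05) and by 1.08 ± 0.11 in ethanol (adjusted p = 0.00015). The highest values were those of WA, at 140 and 146 RPKM in 1-butanol and 143 and 160 in isobutanol, where PAP and IL01 reached at most 66.0. The change in WA was 1.99 and 2.07 and that in the other strains 0.98 to 1.57. The difference between strains was not past the threshold (adjusted p = 0.30 in 1-butanol and 0.19 in isobutanol).

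Without oxygen ISU2 ran from 26.2 to 43.6 RPKM in YPD (median 34.2), from 69.1 to 116 in 1-butanol (median 96.8), from 61.3 to 90.9 in isobutanol (median 75.1) and from 46.4 to 65.5 in ethanol (median 54.8). The 4 ethanol libraries of PAP and IL01 reached at most 60.2. Each alcohol lay above YPD in all 6 libraries. ISU2 rose by 1.43 ± 0.16 in 1-butanol (adjusted p = 1.1e-09), by 1.12 ± 0.14 in isobutanol (adjusted p = 5.8e-05) and by 0.66 ± 0.11 in ethanol (adjusted p = 0.00032). Without strain WA the ethanol change was 0.56 and missed the threshold (adjusted p = 0.048). The anaerobic level of ISU1 was 25.5 to 40.7 RPKM in YPD and at most 51.1 in the alcohols, with 32.6 to 43.8 in the ethanol libraries of PAP and IL01. Its anaerobic changes were 0.37 ± 0.16, 0.25 ± 0.13 and 0.12 ± 0.12 in 1-butanol, isobutanol and ethanol (adjusted p = 0.062, 0.18 and 0.55), with 0.31 for ethanol without strain WA. The 1-butanol change passed in the fit of all 48 libraries (0.0026).

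The balance of the 2 scaffold genes turned with oxygen. ISU1 stood above ISU2 in 24 of 24 aerobic libraries, with a ratio of 1.29 to 6.69 (median 3.38). In the anaerobic libraries the ratio was 0.324 to 1.22 (median 0.619), and ISU2 stood above ISU1 in 21 of 24. This held in 18 of 18 alcohol libraries, 16 of 16 without those labelled WA in ethanol, and in 3 of 6 YPD libraries. ISU1 made up 75.8% to 87.0% of the summed RPKM of the pair in aerobic YPD, 40.5% to 54.9% in anaerobic YPD and 24.5% to 36.8% in anaerobic 1-butanol. The sum of both fell less in proportion than ISU1, from 136 to 178 RPKM in aerobic YPD to 51.7 to 74.1 in anaerobic YPD, and it was 108 to 167 in anaerobic 1-butanol. The coding sequences of 498 and 471 bases are 70.8% identical over 462 aligned bases, with a longest shared run of 12 bases. No 100-base stretch, the length of a read, had more than 77 identical bases.

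**Figure D4:**
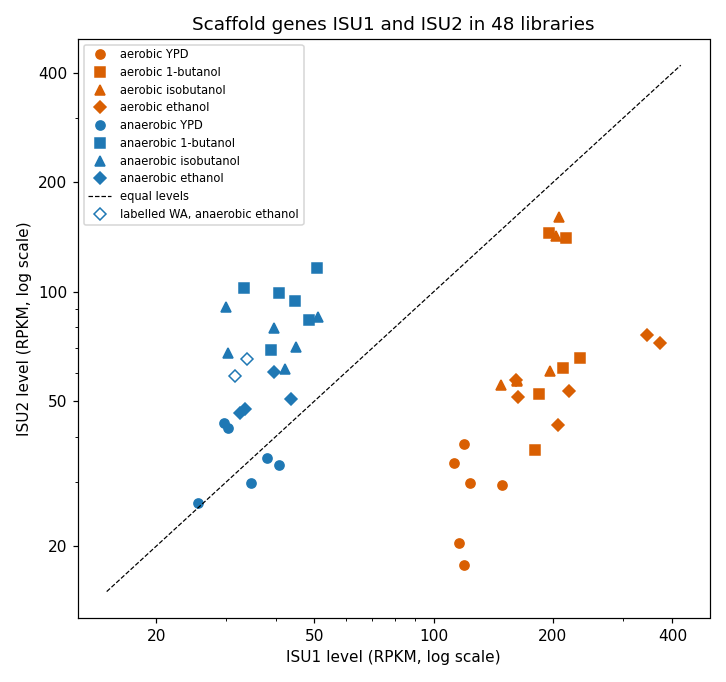
RPKM of ISU2 (vertical axis, log scale) against RPKM of ISU1 (horizontal axis, log scale) in each of the 48 libraries, coloured by oxygen and shaped by medium, with open symbols for the 2 libraries labelled WA in anaerobic ethanol. The dashed line marks equal levels, and the 24 aerobic libraries lie below it while 21 of the 24 anaerobic libraries lie above it.

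SMF3 encodes a metal transporter of the vacuolar membrane that moves stored iron into the cytosol. Aerobic libraries held it at RPKM values from 77.8 to 105 in YPD (median 91.2), from 192 to 307 in 1-butanol (median 244), from 177 to 281 in isobutanol (median 241) and from 93.8 to 206 in ethanol (median 131). Both butanols lay above YPD in all libraries, and ethanol did so within each strain. SMF3 rose by 1.41 ± 0.08 in 1-butanol (adjusted p = 1.2e-05), by 1.34 ± 0.11 in isobutanol (adjusted p = 4.5e-05) and by 0.58 ± 0.10 in ethanol (adjusted p = 0.0032). The butanol changes were alike in size among strains, at 1.34 to 1.47 and 1.30 to 1.37, while WA changed by 0.93, PAP by 0.52 and IL01 by 0.29 in ethanol. The ethanol call was lost after quantile normalization (0.40, adjusted p = 0.027) and without any of 6 of 12 libraries (adjusted p up to 0.018). Without oxygen SMF3 ran from 44.9 to 98.1 RPKM in YPD, from 103 to 173 in 1-butanol, from 69.6 to 198 in isobutanol and from 77.9 to 104 in ethanol, also without the libraries labelled WA. All 1-butanol libraries lay above all YPD libraries. It rose by 0.82 ± 0.16 in 1-butanol (adjusted p = 8.1e-05) and by 0.78 ± 0.15 in isobutanol (adjusted p = 0.0015). The isobutanol call was lost without replicate 2 of WA or replicate 1 of PAP in isobutanol (0.70 and 0.71, adjusted p up to 0.011). The ethanol value was 0.24 ± 0.11 (adjusted p = 0.13) and 0.39 without strain WA (0.17). It was 0.31 without replicate 1 of PAP in YPD, which left the library with the lowest share of reads in genes.

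FET5 encodes the multicopper oxidase and FTH1 the permease of an iron export complex of the vacuolar membrane. With oxygen FET5 ran from 55.8 to 78.1 RPKM in YPD (median 68.6), from 108 to 173 in 1-butanol (median 125), from 80.3 to 125 in isobutanol (median 97.5) and from 61.0 to 83.9 in ethanol (median 70.0). FTH1 ran from 36.4 to 45.5 RPKM in YPD (median 41.2), from 49.4 to 69.2 in 1-butanol (median 63.1), from 45.2 to 66.9 in isobutanol (median 56.3) and from 37.4 to 53.2 in ethanol (median 46.5). All butanol libraries of FET5 and all 1-butanol libraries of FTH1 lay above all YPD libraries. FET5 rose by 0.94 ± 0.09 in 1-butanol (adjusted p = 0.00016) and by 0.54 ± 0.10 in isobutanol (adjusted p = 0.0050). FTH1 rose by 0.59 ± 0.10 in 1-butanol (adjusted p = 0.0035) and by 0.46 ± 0.10 in isobutanol (adjusted p = 0.0089). In ethanol the values were 0.07 ± 0.10 for FET5 and 0.16 ± 0.09 for FTH1 (adjusted p = 0.62 and 0.25). The permease calls were the weaker ones of the pair. Relative to the median of all genes the FTH1 changes were 0.37 and 0.28, both calls were lost after quantile normalization (adjusted p = 0.022 and 0.046), and they were lost without any of 6 and 11 of 12 libraries (adjusted p up to 0.020 and 0.044). The isobutanol call of FET5 was likewise lost after quantile normalization (0.38, adjusted p = 0.025) and without any of 8 of 12 libraries (up to 0.027).

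Without oxygen FET5 ran from 20.6 to 34.6 RPKM in YPD, from 29.3 to 61.5 in 1-butanol, from 26.5 to 48.6 in isobutanol and from 22.6 to 38.2 in ethanol (24.3 to 38.2 without the libraries labelled WA). It rose by 0.69 ± 0.16 in 1-butanol (adjusted p = 0.00086), in 5 of 6 pairs, while WA overlapped with its YPD libraries. The isobutanol value was 0.35 ± 0.13 (adjusted p = 0.059), which passed in the fit of all 48 libraries (0.0057), and the ethanol value 0.03 ± 0.12 (0.17 without strain WA). FTH1 ran from 14.1 to 28.2 RPKM in YPD and from 15.7 to 38.5 over the alcohols, with 15.7 to 29.0 in the ethanol libraries of PAP and IL01. Its anaerobic changes were 0.27 ± 0.16, 0.19 ± 0.16 and -0.02 ± 0.13 in 1-butanol, isobutanol and ethanol, with 0.14 in ethanol without strain WA, and none passed (adjusted p from 0.20 to 0.94).

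CCC1 encodes the importer that stores iron in the vacuole, the opposite direction of transport to SMF3, FET5 and FTH1. With oxygen it ran from 27.5 to 46.3 RPKM in YPD (median 38.2), from 27.9 to 38.7 in 1-butanol (median 34.6), up to 29.6 in isobutanol (median 28.7) and from 34.2 to 55.4 in ethanol (median 45.1). Isobutanol was lowest and ethanol highest in median, and the isobutanol range overlapped with YPD only through a library of PAP at 27.5 RPKM. Against YPD the change was -0.16 ± 0.13 in 1-butanol (adjusted p = 0.41), -0.45 ± 0.13 in isobutanol (adjusted p = 0.035) and 0.24 ± 0.13 in ethanol (adjusted p = 0.21). The isobutanol difference was negative in 6 of 6 pairs, and passed the threshold after quantile normalization (-0.59, adjusted p = 0.0098) and with a replicate block per strain (adjusted p = 0.0084). Without oxygen CCC1 stood at 24.8 to 36.9 RPKM in YPD and at 18.0 to 39.7 over the alcohols. The ethanol libraries of PAP and IL01 stood at 28.5 to 37.8. The anaerobic changes were -0.12 ± 0.17, -0.24 ± 0.16 and 0.04 ± 0.12 in 1-butanol, isobutanol and ethanol (0.05 without strain WA), none past the threshold.

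Between the oxygen conditions in YPD, 6 of the 10 genes were lower without oxygen (HMX1, ISU1, FET5, TIS11, FTH1 and MRS4), beside 14.0% of all genes, and none was higher, beside 25.3%. The median of the 10 genes was -0.79, while that of all genes was 0.27. HMX1 fell by 6.48 ± 0.35 on the log2 scale (adjusted p = 6.2e-08), or by 5.21 on the scale of log2(RPKM + 0.5), and its summed reads, scaled to library size, were 136 times higher with oxygen than without (exact 95% interval 75.9 to 274, counting error only). ISU1 fell by 1.90 ± 0.13 (adjusted p = 4.1e-07), FET5 by 1.28 ± 0.13 (adjusted p = 1.5e-05) and FTH1 by 0.88 ± 0.14 (adjusted p = 0.00034). For these 4 genes no aerobic YPD library was as low as any anaerobic one, and the share of all genes without such overlap was not determined. MRS4 fell by 0.70 ± 0.16 (adjusted p = 0.0044), with -1.35 in PAP, -0.72 in WA and -0.02 in IL01. TIS11 fell by 0.89 ± 0.21 on average (adjusted p = 0.0044), but this was -3.02 in PAP, -0.29 in WA and 0.63 in IL01. The calls of TIS11 and MRS4 were lost without any of 8 and 7 of 12 libraries (adjusted p up to 0.037 and 0.032).

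The other 4 genes did not pass in the comparison of oxygen conditions. SMF3 stood at -0.35 ± 0.13 (adjusted p = 0.038) and passed after quantile normalization, at -0.50 (adjusted p = 0.0017), and in the fit of all 48 libraries (0.0078). ISU2 stood at 0.34 ± 0.14 (adjusted p = 0.065) and passed in the fit of all 48 libraries (0.0061), with 1.17 in IL01 against -0.07 in WA and -0.09 in PAP. CCC1 stood at -0.23 ± 0.15 (adjusted p = 0.22). CTH1 stood at 0.04 ± 0.17 (adjusted p = 0.87), a value whose sign turned under quantile normalization.

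Whether the response to an alcohol differed with oxygen was tested directly. For 1-butanol and isobutanol none of the 10 genes passed in either direction, beside 4.03% of all genes with a higher and 2.34% with a lower response without oxygen for 1-butanol, and 1.76% and 1.30% for isobutanol. At an unadjusted p under 0.05 in limma, 4 genes differed for 1-butanol (TIS11, HMX1, ISU1 and SMF3) and 3 for isobutanol (TIS11, ISU2 and SMF3), and with voom weights 0 passed the threshold. HMX1 entered these tests only through its aerobic level. Its anaerobic libraries held 0 to 13 reads, and the 2 without reads were fitted at an RPKM of 1. Its p is therefore not read as a difference in response. SMF3 came closest, with a 1-butanol response smaller by -0.60 ± 0.16 without oxygen (adjusted p = 0.022) in 6 of 6 pairs, which passed in the fit of all 48 libraries (0.0086). The TIS11 values were -0.83 ± 0.31 and -0.67 ± 0.31 (adjusted p = 0.11 and 0.25). For ethanol ISU1 was lower without oxygen, by -0.80 ± 0.15 (adjusted p = 0.0026), in 5 of 6 pairs, 1 of 10 beside 2.66% of all genes that were lower and 1.41% that were higher. The difference was -1.90 in WA, -0.50 in IL01 and 0.01 in PAP. Without strain WA it was -0.25 (adjusted p = 0.41), and ethanol was at 4% with oxygen and at 3% without.

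Whether strains differed in their response was tested for each alcohol and oxygen condition, and none of the genes passed in these 6 joint tests. Of all genes tested with oxygen, 0.161% passed for 1-butanol, 0.214% for isobutanol and 0% for ethanol. Without oxygen the shares were 2.32%, 0.404% and 4.30%. At an unadjusted p under 0.05 in limma, ISU2 differed in aerobic 1-butanol, HMX1 and ISU2 in aerobic isobutanol, HMX1 and ISU1 in aerobic ethanol, TIS11 in anaerobic 1-butanol, ISU2 and SMF3 in anaerobic ethanol, and 0 genes in anaerobic isobutanol. With voom weights 0 of the genes passed in any of the 6 tests. The anaerobic ethanol test rests on the libraries labelled WA, and without strain WA, an alternative chosen after the label check was seen, 0 of 9 genes passed and 16 genes of the whole table did. With WA, the results for CTH1 and ISU2 depended on replicate 1 of PAP in anaerobic YPD. Without it only replicate 2, of lower median, stood for that group. The closest of all was TIS11 in anaerobic 1-butanol, described above. With 2 replicates per strain and medium, differences such as 1.65 log2 units between strains in the aerobic isobutanol response of HMX1 (2.17 in PAP against 0.52 in WA) did not pass (adjusted p = 0.32).

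The butanols differed from ethanol in these genes more than from each other. With oxygen, at the doses used, 7 of 10 genes were higher in the mean of the butanols than in ethanol, beside 7.41% of all genes, and CCC1 was lower, 1 of 10 beside 6.16%. TIS11 was higher by 1.91 ± 0.19 (adjusted p = 1.1e-06), HMX1 by 0.95 ± 0.14, SMF3 by 0.79 ± 0.09, MRS4 by 0.75 ± 0.11, FET5 by 0.67 ± 0.08, ISU2 by 0.40 ± 0.08 (adjusted p = 0.0020) and FTH1 by 0.36 ± 0.07 (adjusted p = 0.0018). CCC1 was at -0.54 ± 0.10 (adjusted p = 0.00083), in 6 of 6 pairs, and thus ran against its partners in vacuolar iron transport. ISU1 was at -0.28 ± 0.08 (adjusted p = 0.014), and passed after quantile normalization (-0.31, adjusted p = 0.0049). For ISU2, WA differed by 0.99, PAP by 0.22 and IL01 by 0.00. Its call was lost without replicate 2 of IL01 in ethanol (0.33, adjusted p = 0.015) and that of FTH1 without replicate 1 (0.34, adjusted p = 0.011).

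Without oxygen 5 of 9 genes were higher in the butanols than in ethanol, beside 16.9% of all genes, namely TIS11 by 0.64 ± 0.17, ISU2 by 0.62 ± 0.10, SMF3 by 0.55 ± 0.10, MRS4 by 0.55 ± 0.11 and FET5 by 0.49 ± 0.10 (adjusted p from 0.00013 to 0.0060). Without strain WA 2 of 9 passed, beside 664 of 5679 genes called in either direction. They were ISU2 at 0.80 (adjusted p = 0.00041) and FET5 at 0.53 (adjusted p = 0.0041). The values of the others were then 0.72 for TIS11, 0.58 for MRS4 and 0.44 for SMF3 (adjusted p = 0.013, 0.011 and 0.025). The TIS11 call was also lost after quantile normalization (0.52, adjusted p = 0.031) and without any of 10 of 24 libraries (adjusted p up to 0.045).

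1-butanol and isobutanol are isomers with a straight and a branched carbon chain, given at 0.8% and 1%. No gene of the set passed between them with oxygen (0.997% of all genes were higher in 1-butanol and 1.91% higher in isobutanol) or without (0.632% and 0.474%). At an unadjusted p under 0.05 in limma 3 genes differed with oxygen (HMX1, FET5 and CCC1) and 2 without (ISU2 and FET5), and with voom weights 1 and 0 passed. FET5 was higher in 1-butanol by 0.40 ± 0.09 with oxygen (95% interval 0.21 to 0.59, adjusted p = 0.012) and by 0.34 ± 0.11 without (0.10 to 0.57), in 6 of 6 pairs each. The aerobic difference passed with voom weights (adjusted p = 0.0069) and with a replicate block per strain (0.0030). Without replicate 1 of PAP in isobutanol it was 0.46. Leaving out either replicate of WA in YPD changed the variances, of the gene and pooled over all genes, and left the difference at 0.40. For TIS11 the aerobic difference was -0.01, with an interval of -0.47 to 0.45, and for SMF3 it was 0.07, with an interval of -0.15 to 0.29.

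Counts for 5 further lists of iron genes are given beside the shares of all genes called in the same comparisons, which were 8.22% higher and 2.40% lower in aerobic 1-butanol, 7.99% and 2.43% in aerobic isobutanol, 5.53% and 1.37% in aerobic ethanol, 20.2% and 7.11% in anaerobic 1-butanol, 11.3% and 2.58% in anaerobic isobutanol, and 25.3% and 14.0% in YPD without oxygen. These lists were not compared with other genes by a test. Of 17 iron uptake genes under Aft1 and Aft2, 9 were higher and 2 lower in aerobic 1-butanol, with a median of 0.81, and 9 were higher and 1 lower in isobutanol, with a median of 0.94. FIT2, FIT3 and FIT1, cell wall proteins that retain iron-siderophore complexes, rose most, by 3.64, 2.82 and 2.33 in 1-butanol and by 3.29, 2.46 and 1.95 in isobutanol. In aerobic ethanol 1 was higher (FIT3, 1.02) and 1 lower (SIT1, a siderophore transporter, -1.78), with a median of -0.06. Without oxygen 16 of the 17 were lower in YPD, with a median of -2.75, led by FET3, the surface iron oxidase, at -8.95, FIT2 at -5.66 and FRE1, a ferric reductase, at -5.00. In anaerobic 1-butanol 2 of 16 uptake genes were higher (FIT2, 1.65, and FRE3, 1.25) and 1 lower (SIT1, -0.98), and in isobutanol 2 of 15 were higher (FRE3, 0.99, and FRE1, 0.89) and 1 lower (SIT1, -1.11).

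Of 15 mitochondrial assembly genes, partners of the ISU scaffolds, ISD11 was higher in aerobic 1-butanol (0.63), and ISD11 (0.45) and ISA2 (0.54) in aerobic isobutanol, while none passed in aerobic ethanol or anaerobic isobutanol in limma, with 6 at an unadjusted p under 0.05 in each. In anaerobic 1-butanol ARH1 was higher (0.62) and MRS3, the paralog of MRS4, lower (-0.61). Of 8 cytosolic assembly genes none passed in the aerobic alcohols in limma, with 5, 3 and 2 at an unadjusted p under 0.05 in 1-butanol, isobutanol and ethanol, and CIA2 was higher in both anaerobic butanols (0.68 and 0.74). Of 15 enzymes with iron-sulfur or haem cofactors, 3 were lower in aerobic 1-butanol (GLT1, -0.73, ACO1, -0.61, and CYT1, -0.42). In isobutanol 6 were lower, CCP1 (-0.63), CYT1 (-0.53) and ACO1 (-0.53) the most, and 1 was higher, while in aerobic ethanol 3 were higher (CYT1, 0.69, SDH2, 0.61, and RIP1, 0.43). In anaerobic 1-butanol 7 of 14 were higher, with CYT1 (2.18), RIP1 (1.78) and SDH2 (1.54) at the top, and 2 lower, and in isobutanol 6 of 14 were higher (CYT1, 1.88, RIP1, 1.37, and BIO2, 1.31, the most). Of 7 iron regulators, YAP5 was higher (1.05) and GRX4 lower (-1.03) in aerobic isobutanol. None of the 7 passed in the other alcohol comparisons given here in limma, with 7 and 2 at an unadjusted p under 0.05 in aerobic 1-butanol and ethanol and 3 and 2 in anaerobic 1-butanol and isobutanol. In YPD without oxygen these lists moved in both directions, 1 higher (ISA1, 1.04) and 2 lower (ISD11, -1.04, and GRX5, -0.47) for mitochondrial assembly, 1 lower for cytosolic assembly (DRE2, -1.19), 5 higher and 4 lower for the enzymes (CYT1, -7.29, RIP1, -4.91, and MET5, 2.54, the most), and 1 higher (YAP5, 0.99) and 2 lower (GRX4, -0.72, and FRA2, -0.48) for the regulators.

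Over the 24 group means of log2 RPKM, which share libraries, depth and the contrast of oxygen, the genes followed different patterns. HMX1 was most like YDL086W (r = 0.976), CCC2 (0.967) and FTR1 (0.966), ISU1 most like FAA1 (0.977) and SOD2 (0.965), FET5 most like PTM1 (0.973), and FTH1 most like ISD11 (0.965), all with a large difference between oxygen conditions. TIS11 was most like VMR1 (0.895) and AFT1 (0.879), MRS4 like FIT1 (0.873), ISU2 like YEA4 (0.836), SMF3 like PFA4 (0.865), CTH1 like AVT4 (0.793) and CCC1 like CPR8 (0.878). Over the 12 aerobic group means TIS11 was most like FIT2 (0.947), ISU2 like IKS1 (0.980), SMF3 like SPO24 (0.971), MRS4 like PHO87 (0.974) and CCC1 like COX9 (0.953). These correlations describe 24 or 12 points each and were picked as the highest of all genes. Over the 23 groups without that labelled WA in anaerobic ethanol, the named genes had correlations of 0.783 to 0.977, but FTR1, AFT1, YEA4 and AVT4 took lower ranks, and PET8 (0.857) was then most like ISU2.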

How the data were processed

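Reads were aligned by the authors to the R64 genome with BWA and counted with HTSeq. The values the authors deposited are log2 RPKM, 1 column per library, with genes without reads at exactly 0. Whether HTSeq counted by strand is not given in the sources used here. A gene without reads therefore entered the fits as an RPKM of 1, and was counted as 0 in means of RPKM. Values of 5858 of 6713 genes (87.26%, all 10 genes described included) came out as whole reads, within 0.02 reads, when the scaling was undone. The table has 4 further lines, not analysed here.

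Libraries were grouped by their labels. The limma package, version 3.58.1, in R 4.3.3 was used with its empirical Bayes trend on each gene whose mean RPKM over a comparison's libraries reached 1, with a mean per group and the replicate number within an oxygen condition as a block. Benjamini-Hochberg adjustment covered every gene tested, and an FDR under 1% was called. Alcohols were each compared with YPD in 12 libraries, oxygen conditions and strains in the 12 YPD libraries, and alcohols with each other in the 24 libraries of an oxygen condition. Differences between strains were joint tests. The 95% intervals of changes come from the same fits and those of HMX1 reads from an exact binomial calculation. The fits were tested on simulated data.

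The block follows the study's methods, by which replicates were collected on different days so that they could be treated as pairs. Whether a number marks the same day across strains and media is not given in the sources used here. As a check, deviations from the group means were correlated between libraries of the same number, for 66 pairs of groups in each oxygen condition. The median was 0.08 in aerobic pairs (lowest -0.39, highest 0.55) and 0.07 in anaerobic pairs (lowest -0.35, highest 0.73). Replicates are separate collections of single strains. The p-values rest on the spread between them, pooled in part over all genes by the empirical Bayes trend. Residual degrees of freedom were 4 in the fit of the YPD libraries and 5 in each fit of an alcohol against YPD. The weight of the pooling differs between fits, so adjusted p-values of different comparisons are not on 1 scale.

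All 10 genes are named, together with, for each further list, at most 3 called genes taken by size of change, and the genes whose group means correlated most with each of the 10. The 10 genes, the lists and the motifs were chosen with earlier results of these data known. Alternatives were quantile normalization, no replicate block, a replicate block for every strain, log2(RPKM + 0.5), no filter, voom weights from the recovered reads, a fit of all 48 libraries, each library left out and, where the libraries labelled WA in anaerobic ethanol enter, no strain WA. The promoter window of 500 bases and the test of strain differences in anaerobic ethanol without strain WA were chosen after the data were seen, as were the levels, HMX1 reads and correlations without the libraries labelled WA in anaerobic ethanol. Sequences and positions come from the RefSeq annotation of R64 and were handled with Biopython 1.88.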

Additional observations from a re-analysis of the deposited data

Results flagged for a closer look

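The response of ISU1 to ethanol differed with oxygen by the test of the difference itself, at -0.80 on the log2 scale, a value that rests on strain WA and on ethanol doses that differed. Strain differences were not tested for oxygen in YPD, for the butanols against ethanol and for 1-butanol against isobutanol. In 4 cases among these comparisons both libraries of 1 strain lay on one side and both of another strain on the other side. How often this occurs over all genes was not determined, so the number of cases is not a result about these genes. TIS11 in YPD was lower without oxygen in PAP (-3.02) and higher in IL01 (0.63). ISU2 with oxygen was higher in 1-butanol than in isobutanol in PAP (0.12) and lower in IL01 (-0.36). Without oxygen TIS11 was lower in 1-butanol than in isobutanol in WA (-0.58) and higher in PAP (0.54), and SMF3 did likewise, at -0.68 in WA and 0.63 in PAP.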

How the results depend on the processing

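Counts of genes past the threshold stayed within 1.5 times, or stayed at 0, in 460 of 503 cases over all alternatives. Counts of 0 that stayed at 0 are part of the 460 and say little about the larger counts. No single gene past the threshold changed sign. Without strain WA the count fell to 0 for ethanol against YPD without oxygen and for ethanol by oxygen, and to 2 for the butanols against ethanol without oxygen. With a replicate block per strain 1 gene differed between strains in anaerobic 1-butanol and 1 between the butanols with oxygen, as was the case for the butanols with voom weights (1). Without the replicate block 8 genes were called in aerobic 1-butanol and 2 differed between strains in anaerobic YPD, against 0 there with voom weights, and no other count changed without the block. The block per strain could not be fitted to the YPD libraries alone. In the fit of all 48 libraries 1 gene differed between strains in anaerobic ethanol, 2 and 5 in YPD with and without oxygen, and 1 in 1-butanol by oxygen. The gene in anaerobic ethanol was HMX1, which is also among the 5 in anaerobic YPD. It held 1 to 3 reads per library in anaerobic ethanol and 0 to 3 in anaerobic YPD. Neither result is read as a strain difference, and the ethanol test includes the libraries labelled WA. With each library left out in turn, the number called ran from 5 to 8 in 1-butanol, 4 to 8 in isobutanol and 2 to 3 in ethanol with oxygen, and from 4 to 6, 2 to 5 and 1 to 2 without. It ran from 4 to 6 between oxygen conditions, 0 to 1 and 0 to 3 between strains in YPD with and without oxygen, 7 to 9 and 4 to 5 for the butanols against ethanol, and 0 to 1 between the butanols with oxygen. For strain differences it ran from 0 to 1 in aerobic ethanol and anaerobic 1-butanol and from 0 to 2 in anaerobic ethanol. The count of 4 for aerobic isobutanol came without replicate 2 of WA or replicate 1 of PAP in isobutanol, and that of 2 for anaerobic isobutanol without the same replicates of its anaerobic libraries. The 2 replicates per group limit the tests of strain differences, and depth limits HMX1 without oxygen.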
